A study of Mus musculus with 4 samples.

Results

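The immunity-related GTPases (IRG) and the giant GTPase Gvin1 are interferon-induced proteins of cell-autonomous defence, and 10 of their mouse genes were followed here in muscle cells treated with interferon-gamma (IFN-γ). Members were chosen by name: Irgm1, Irgm2, Igtp, Iigp1, Gm4951, F830016B08Rik, Ifi47, Tgtp1, Tgtp2 and Gvin1, with every array probe whose transcript maps to one of these symbols. They make up 10 of the 19751 genes named on the array and are measured by 14 of its 39429 probes, with 2 probes for 4 genes and 1 probe for 6 genes. The cells were C2C12, an established line of mouse myoblasts whose cells fuse into myotubes in low serum, compared on day 3 of differentiation with IFN-γ at 1 ng/ml and without the cytokine. Each of 4 Agilent two-colour arrays carried treated RNA in Cy5 and untreated RNA in Cy3, from 8 µg of total RNA. The labels disagree on horse serum in the differentiation medium of both groups (2% in the protocol, 10% in the sample source). No array reversed the dyes, so dye and treatment cannot be told apart. The labels number the treated samples as 4 biological replicates and leave unsaid whether control RNA also came from 4 cultures. The p-values therefore rest on the spread between arrays, which may be technical. RNA came from the whole culture, in which fewer responding cells and less RNA per cell cannot be told apart.

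IRG proteins act at the membrane of vacuoles that hold intracellular pathogens such as Toxoplasma and Chlamydia. The regulators Irgm1, Irgm2 and Igtp, called GMS proteins after a methionine in their nucleotide-binding loop, sit on the cell's own membranes and hold the effectors inactive. The GKS effectors, with the usual lysine in that loop, load onto the pathogen vacuole and disrupt it. Promoters of IFN-γ-induced genes often carry GAS elements (gamma-activated sites) and ISRE elements (interferon-stimulated response elements), the latter bound by interferon regulatory factors.

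Promoter sequences show which of these elements the members carry. RefSeq windows of 300 bases, from 250 before to 50 after the gene start on build GRCm38.p6, were held for 6 of the 10 members: Igtp, Irgm2, Irgm1, Tgtp1, Tgtp2 and Ifi47. The last 120 bases before each start are given 5′ to 3′ on the gene's strand. Capitals mark matches to the GAS pattern TTCNNNGAA or to the paired ISRE core (GAAA, any 2 bases, GAAA), each searched on both strands. Igtp lies at chr11:58199436-58199555 (plus strand), Irgm2 at chr11:58214857-58214976 (plus), Irgm1 at chr11:48871421-48871540 (minus), Tgtp1 at chr11:48992247-48992366 (minus), Tgtp2 at chr11:49064213-49064332 (minus) and Ifi47 at chr11:49076467-49076586 (plus).
Igtp: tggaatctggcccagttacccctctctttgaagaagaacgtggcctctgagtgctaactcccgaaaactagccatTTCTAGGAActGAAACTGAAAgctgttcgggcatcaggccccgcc
Irgm2: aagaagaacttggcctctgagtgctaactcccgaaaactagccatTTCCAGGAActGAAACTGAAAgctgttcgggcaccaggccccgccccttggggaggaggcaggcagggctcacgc
Irgm1: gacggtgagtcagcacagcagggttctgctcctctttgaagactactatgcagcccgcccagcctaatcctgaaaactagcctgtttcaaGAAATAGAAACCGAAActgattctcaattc
Tgtp1: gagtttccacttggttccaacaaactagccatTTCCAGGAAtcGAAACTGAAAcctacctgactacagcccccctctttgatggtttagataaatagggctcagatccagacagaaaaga
Tgtp2: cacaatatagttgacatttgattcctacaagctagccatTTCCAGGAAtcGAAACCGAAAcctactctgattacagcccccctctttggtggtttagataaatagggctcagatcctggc
Ifi47: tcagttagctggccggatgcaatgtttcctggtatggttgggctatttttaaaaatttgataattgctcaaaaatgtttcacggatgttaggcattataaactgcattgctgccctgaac

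Igtp, Irgm2, Tgtp1 and Tgtp2 each held a GAS match followed, after 2 bases, by an ISRE pair. In Igtp the GAS match spanned −45 to −37 from the start and the ISRE pair −34 to −25. The same arrangement ran from −75 to −55 in Irgm2, from −88 to −68 in Tgtp1 and from −81 to −61 in Tgtp2. Irgm1 held overlapping ISRE pairs, at −30 to −21 and −24 to −15, with no GAS match in its window. Ifi47 held neither set of letters in its window, which says nothing about the factors themselves. Among all 32851 windows of 27025 genes, 3.44% held an ISRE pair, against 5 of these 6, and 8.3% held a GAS match, against 4 of 6. The joined pattern, a GAS match, 2 bases and an ISRE pair on 1 strand, written down after these sequences had been seen, occurred in 5 windows (0.0152%), of which 4 were members. The windows are not independent sequences. At the best ungapped shift Igtp and Irgm2 were identical at 68.1% of 270 bases, and Tgtp1 and Tgtp2 at 51.7% of 292 bases, whereas the other 13 pairs reached 30.8% to 39.4%.

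**Figure D1:**
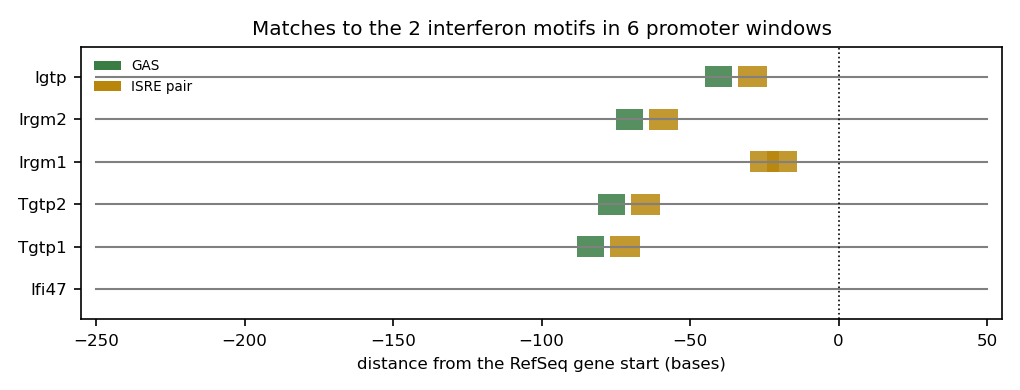
Matches to GAS (green) and to the ISRE pair (ochre) in the 6 promoter windows, by distance in bases from the RefSeq gene start. Igtp, Irgm2, Tgtp1 and Tgtp2 show a GAS match just before an ISRE pair, Irgm1 shows overlapping ISRE pairs, and Ifi47 shows no match.

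All 10 genes were higher with IFN-γ, from 5.76-fold for the lower Gvin1 probe to 101-fold for Igtp after loess normalisation. All 14 probes passed the filter for testing, which asked that 1 channel be well above background on 3 or more of the 4 arrays, and all 14 were higher at an adjusted p under 0.05 (limma, mean log2 ratio against 0, two-sided, Benjamini-Hochberg over 28933 probes). The Tgtp2 probe A_55_P1989225 passed that filter through treated RNA alone, as its control spots were well above background on only 2 arrays. Its call is therefore no separate support. Where both channels had to be above background on all arrays, 12 member probes were tested and all 12 were higher. Of all tested probes 16.5% were higher at an adjusted p under 0.05 and 12.6% lower. A rise of at least 2-fold with that p was found for 1.44% of tested probes and for all 14 of the members. A log2 ratio of at least 4, or 16-fold, was reached by 31 tested probes (0.107%), and 9 of those 31 belonged to members. The median over the 14 probes was 4.51, against 0.01 over all tested probes. On single arrays the 56 ratios ran from 2.39 to 6.91, and all lay above 0. Spread over arrays was small beside these ratios, with SDs of 0.09 to 0.40.

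**Figure D2:**
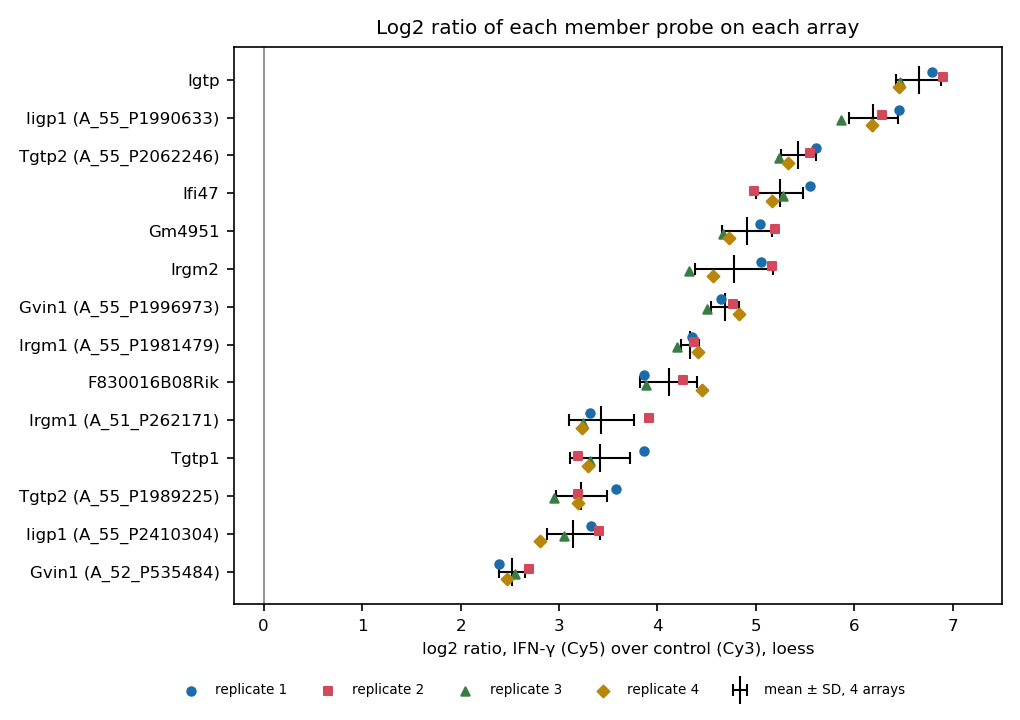
Log2 ratio of IFN-γ (Cy5) over control (Cy3) for the 14 member probes on each of 4 arrays, with crosses for the mean and bars for the SD. Every point lies above 0, and most neighbouring probes overlap.

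Among the regulators, Igtp had the largest ratio. Igtp (Irgm3) is found on the endoplasmic reticulum and lipid droplets. The median intensities of its probe A_51_P112355, averaged over its spots, were 731, 460, 545 and 586 in control RNA and 300354, 168946, 332293 and 230642 in treated RNA for replicates 1 to 4. The log2 ratios were 6.79, 6.91, 6.46 and 6.46. No array of the other regulators reached even the lowest of these ratios. The mean was 6.65 ± 0.23 (SD, n = 4), a 101-fold rise with an adjusted p of 6.18e-06. This probe was printed 10 times on every array, and its spots differed within an array by SDs of 0.05 to 0.09, less than the spread between arrays. After loess 2 tested probes of the array had a larger ratio, those of Gbp3 and of the second Gbp2b probe. With Feature Extraction ratios, those of the scanner software, Igtp had 6.81, below Gbp7, Gbp4, Gbp3, the Iigp1 probe A_55_P1990633, the second Gbp2b probe and Gbp8. The control spots of Gbp4, Gbp7 and Gbp8 were well above background on 2, 1 and 0 arrays, so a rank against them is not exact.

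Irgm2, a Golgi regulator, had log2 ratios of 5.05, 5.17, 4.33 and 4.57 in replicates 1 to 4. Control intensities were 651, 334, 535 and 574, and treated intensities were 79357, 37231, 73440 and 60442. Replicates 1 and 2 lay above replicates 3 and 4, and the probe had the widest spread of the 14. Its mean of 4.78 ± 0.40 (SD, n = 4) was a 27.4-fold rise (limma adjusted p = 3.9e-05).

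Irgm1, the regulator linked to autophagy and mitochondria and needed for resistance to mycobacteria, had 2 probes. With A_55_P1981479 the log2 ratios were 4.35, 4.37, 4.20 and 4.41, the tightest set of the 14. Their mean of 4.33 ± 0.09 (SD, n = 4) was a 20.1-fold rise (limma adjusted p = 6.18e-06). With A_51_P262171 the ratios were 3.32, 3.92, 3.24 and 3.23, with replicate 2 above the other three. The mean was 3.43 ± 0.33 (SD, n = 4), a 10.8-fold rise with an adjusted p of 6.73e-05 (limma). The probes therefore agreed on direction and differed in size, with no overlap of their ranges.

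The GKS effectors rose as well, all 6 of 6. Iigp1 (Irga6) is the best studied effector and coats the Toxoplasma vacuole. Its probe A_55_P1990633 had log2 ratios of 6.46, 6.28, 5.86 and 6.18, a mean of 6.19 ± 0.25 (SD, n = 4) and a 73.2-fold rise (limma adjusted p = 7.3e-06). Control spots of that probe were dim, at 87, 64.5, 71.5 and 78 over local backgrounds of 31 to 44 among member spots, while treated spots read 32347, 18084, 32457 and 28145. The fold of so dim a control depends on how background is treated. The other Iigp1 probe, A_55_P2410304, had brighter control spots (1661, 1162, 1073 and 1646) and treated spots of 60357, 36732, 60240 and 50828. Its log2 ratios were 3.32, 3.40, 3.05 and 2.81, a mean of 3.15 ± 0.27 (SD, n = 4) and an 8.86-fold rise (limma adjusted p = 5.14e-05). The size of the Iigp1 response thus depended on the probe, between 8.86-fold and 73.2-fold.

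Gm4951 and F830016B08Rik are the less studied neighbours of Iigp1 on chromosome 18. Gm4951 gave log2 ratios of 5.05, 5.19, 4.66 and 4.73, with control spots of 980, 592, 838 and 886 and treated spots of 119245, 64889, 144412 and 104367. Replicates 1 and 2 were again the higher ones. The mean of 4.91 ± 0.25 (SD, n = 4) was a 30.0-fold rise (limma adjusted p = 1.14e-05). F830016B08Rik gave 3.86, 4.26, 3.89 and 4.46, from dim control spots of 94, 79, 70.5 and 77 and treated spots of 5585, 5147, 7184 and 8191. Here replicates 2 and 4 were the higher ones, and the mean of 4.12 ± 0.29 (SD, n = 4) was a 17.3-fold rise (limma adjusted p = 2.81e-05).

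Ifi47 (Irgd), an early described member of the family, rose without a motif match in its window. Its log2 ratios were 5.55, 4.98, 5.28 and 5.17, with control spots of 439, 293, 285 and 310 and treated spots of 76991, 28877, 76393 and 50141. Replicate 2 was the lowest here, unlike in Igtp and Gm4951, where it was the highest. The mean of 5.24 ± 0.24 (SD, n = 4) was a 37.9-fold rise (limma adjusted p = 8.4e-06).

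Tgtp1 and Tgtp2 are near-identical copies that encode Irgb6, an effector that reaches the vacuole early, so which copy a probe reads is uncertain. The bright Tgtp2 probe, A_55_P2062246, had log2 ratios of 5.61, 5.55, 5.24 and 5.33. Its control spots read 2687, 2520, 1941 and 2383 and its treated spots 481864, 351223, 500298 and 425787, with none marked saturated. The mean of 5.43 ± 0.18 (SD, n = 4) was a 43.1-fold rise (limma adjusted p = 6.18e-06). The dim Tgtp2 probe, A_55_P1989225, had 3.58, 3.19, 2.95 and 3.20, a mean of 3.23 ± 0.26 (SD, n = 4) and a 9.37-fold rise (limma adjusted p = 4.45e-05), with control spots well above background on 2 of 4 arrays. The Tgtp1 probe had 3.87, 3.19, 3.31 and 3.29, a mean of 3.41 ± 0.31 (SD, n = 4) and a 10.7-fold rise (limma adjusted p = 5.46e-05), with control spots well above background on 3 of 4 arrays. Replicate 1 was the highest array for each of these 3 probes.

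Gvin1 encodes a very large interferon-inducible GTPase whose function is little known. Probe A_55_P1996973 had log2 ratios of 4.65, 4.77, 4.50 and 4.83, from control spots of 317, 244, 228 and 277 and treated spots of 30002, 21300, 35491 and 35283. The mean of 4.69 ± 0.15 (SD, n = 4) was a 25.7-fold rise (limma adjusted p = 6.18e-06). Probe A_52_P535484 had 2.39, 2.70, 2.55 and 2.47, a mean of 2.53 ± 0.13 (SD, n = 4) and a 5.76-fold rise (limma adjusted p = 2.81e-05). Both sets were narrow and far apart, so the difference between the Gvin1 probes exceeded their spread.

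**Figure D3:**
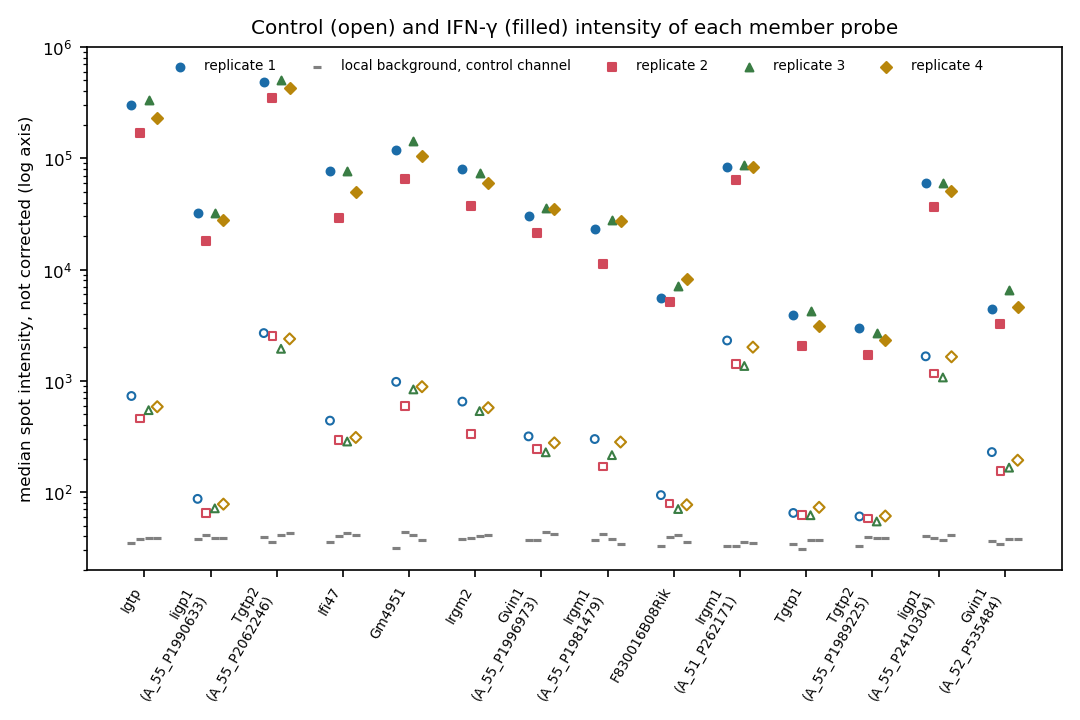
Median spot intensity, before background correction, of each member probe in control RNA (open) and IFN-γ RNA (filled) on 4 arrays, on a log axis, with grey dashes for the control channel's local background. Filled points lie above open points for every probe, and the control spots of Tgtp1, the dim Tgtp2 probe, F830016B08Rik and the Iigp1 probe A_55_P1990633 lie closest to background.

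In Iigp1, Gvin1 and Irgm1 the larger response exceeded the smaller on 4 of 4 arrays. The mean difference in log2 ratio between the probes was 3.05 ± 0.26 (SD, n = 4) for Iigp1, 2.16 ± 0.18 for Gvin1 and 0.91 ± 0.32 for Irgm1. Those differences are 8.26-fold, 4.47-fold and 1.87-fold between the probes' folds. An exact sign-flip permutation test, two-sided, gave p = 0.125 for each of the 3 genes, the smallest p that 4 arrays allow. With Feature Extraction ratios the Iigp1 difference was 4.50. The Tgtp2 probes differed by 2.20 ± 0.15 (SD, n = 4) after loess, in the same direction on 4 of 4 arrays. For them an exact sign-flip permutation test, two-sided, also gave p = 0.125. This does not settle which Tgtp2 probe responded more. Control RNA was well above background on only 2 arrays for the dim one, and their order depended on the processing. After loess the bright probe had the larger ratio (5.43 against 3.23), and with Feature Extraction ratios or the authors' value table it had the smaller one (5.49 against 5.64). After loess, with 13 neighbouring pairs in the order of mean ratios, 10 overlapped in their array ranges. The 3 gaps lay between the first Iigp1 probe and the bright Tgtp2 probe, between the first Gvin1 probe and the second Irgm1 probe, A_55_P1981479, and between the second Iigp1 probe and the second Gvin1 probe. Finer ranking of members is therefore not resolved by these arrays.

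Arrays differed in which of them read highest. Replicate 1 was the highest for 5 probes, replicate 2 for 6, replicate 4 for 3 and replicate 3 for none, while replicate 3 was the lowest for 7. Replicate 2 also correlated least with the other arrays over all tested probes (r of 0.539 to 0.656, in a range up to 0.893 between the others). Without replicate 2, the 14 probes ranged from 2.47 to 6.57 and all 14 were still called.

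The members lie in 3 groups along the chromosomes. Chromosome 11 holds Irgm1 and, past Gm5431 and other genes, 9930111J21Rik1, Tgtp1, 9930111J21Rik2, Tgtp2 and Ifi47 next to each other. After 132 further protein-coding genes follow Gm12250, Igtp and Irgm2. Chromosome 18 holds Gm4951, F830016B08Rik and Iigp1, with Gm4841 among them, and chromosome 7 holds Gvin1 beside Gm4070. Genes next to each other did not share one size of response. Of the relatives, a list of 12 genes outside the members, 5 were tested and 7 were not. By the brightest tested probe of each gene, 3 were higher, 0 lower and 2 did not pass (limma, adjusted over 15678 genes, of which 19.8% were higher and 13.9% lower).

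Gm12250 (Irgb10), an effector that acts on bacterial vacuoles and membranes, rose by 2.95 ± 0.16 (SD, n = 4; limma adjusted p = 8.75e-06), with 3.16, 2.80, 2.94 and 2.89 on the arrays. Its window held ISRE pairs at −91 to −82 and −46 to −37 and a GAS match at −61 to −53. The 9930111J21Rik2 probe was not well above background in control RNA on any array. Its loess log2 ratio was 0.94 ± 0.17 (SD, n = 4, limma adjusted p = 0.000975) and its Feature Extraction ratio 3.24. It was tested through treated RNA alone, so the size is not firm and is open to dye bias. Gm5431 had 0.23 ± 0.10 (SD, n = 4) and passed narrowly (limma adjusted p = 0.0439). Over probes its adjusted p was 0.0486, and it missed the threshold without replicate 2 (0.0569), with both channels above background (0.0548) and under median centring (0.106). It passed without background correction (0.25, limma adjusted p of 0.0302) and with Feature Extraction ratios (0.64, limma adjusted p of 0.017). The other Gm5431 probe had 0.14 after loess and 1.37 with Feature Extraction ratios. Its control spots were well above background on 0 arrays. For 9930111J21Rik1 the probes went apart, with −0.24 ± 0.37 (SD, n = 4; limma adjusted p = 0.233) for the brightest and 3.26 ± 0.23 for the other (limma adjusted p over probes of 3.34e-05). Irgq had −0.20 ± 0.19 (SD, n = 4; limma adjusted p = 0.122). The negative means of 9930111J21Rik1 and Irgq became 0.73 and 0.56 under median centring, which puts the median of all tested probes at 0.50. Without replicate 2 the 9930111J21Rik1 probe had −0.38 and passed (adjusted p over probes of 0.0316).

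**Figure D4:**
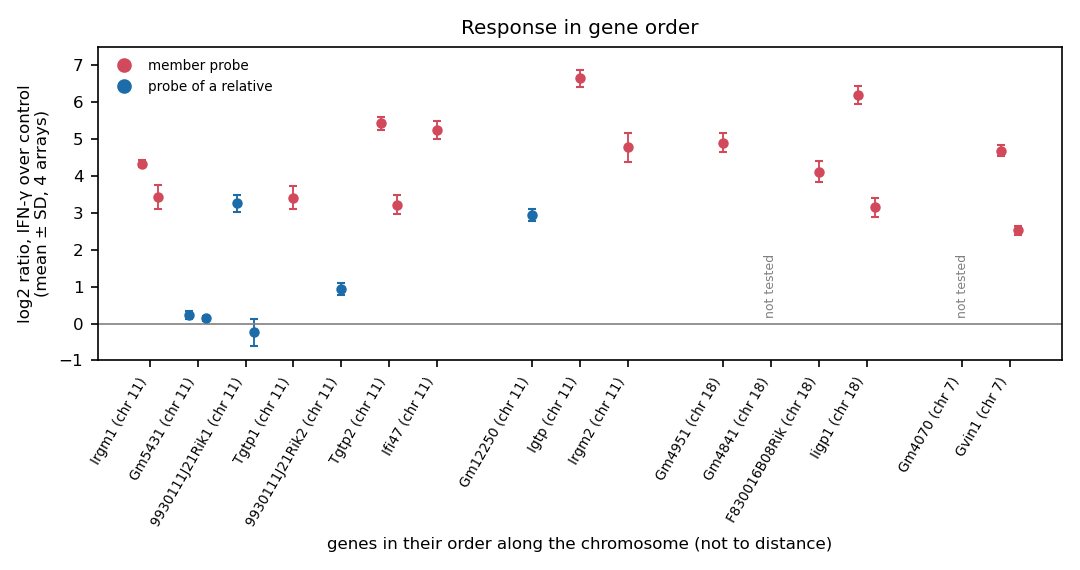
Mean log2 ratio of IFN-γ over control with its SD over 4 arrays for each tested probe of the members (red) and relatives (blue), in gene order and not to distance; chr 11, 18 and 7 give the chromosome. The Igtp and Irgm2 group and the Tgtp2 and Ifi47 group sit high, while Gm5431 and a probe of 9930111J21Rik1 sit near 0.

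Guanylate-binding proteins (Gbp) work beside IRG proteins at the same vacuoles. Of 11 listed genes 10 were tested, 9 rose and 1 did not pass, beside 19.8% higher and 13.9% lower of all tested genes. Control spots of Gbp4, Gbp7 and Gbp8 were well above background on 2, 1 and 0 arrays, so these were tested through treated RNA alone. The median of 3.34 compares with 4.73 for the members by the same rule and 0.03 for all tested genes. It takes 1 probe per gene, and the other Gbp2b probe had 6.66. Gbp8 had 3.00 after loess and 6.96 with Feature Extraction ratios, so the medians of the families are not a firm comparison. Gbp3 rose by 7.08 ± 0.32, Gbp7 by 5.04 ± 0.16 and Gbp2b by 3.89 ± 0.33 (SD, n = 4), and Gbp4 had 6.38, 5.99, 5.83 and 5.78 on the arrays (limma adjusted p = 2.64e-06). Gbp6 did not pass, with 0.00 ± 0.57 (SD, n = 4) on its brightest probe and 4.67 on its other probe, and its brightest probe had 1.02 under median centring. The other Gbp6 probe was called (limma adjusted p over probes of 8.96e-06) and had 6.62 with Feature Extraction ratios. Its control spots were well above background on only 2 arrays, so its size is not firm. With Feature Extraction ratios Gbp3, Gbp4 and Gbp7 had 7.75, 7.89 and 8.06. Under median centring all 10 were called higher.

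In the IFN-γ signalling list, 13 of 14 genes were tested, of which 7 rose, 0 fell and 6 missed the threshold. Among all tested genes 19.8% were higher and 13.9% lower. Ptpn2, counted among the 7, had only 0.32 (limma adjusted p = 0.0333). It missed the threshold with Feature Extraction ratios (limma adjusted p over probes of 0.0961). The list's median was 0.32. Under median centring all 13 were called higher, but so were 16472 of 28933 tested probes. The uncalled genes thus depend on the scaling. The transcription factor genes Batf2, Irf1, Irf9 and Stat2 rose by 4.35, 2.74, 2.24 and 2.23, where Irf9 and Stat2 form part of the complex that binds ISRE elements. With Feature Extraction ratios Batf2 had 5.03. Of the feedback inhibitors, Socs1 rose by 1.75 ± 0.25 (SD, n = 4, limma adjusted p = 0.000214). Socs3 did not pass, with −0.13 ± 0.21 (SD, n = 4, limma adjusted p = 0.326). Its value was 0.89 under median centring. Without replicate 2 it was −0.24 and passed (adjusted p over probes of 0.0249).

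Autophagy conjugation factors place IRG proteins on vacuoles, and ubiquitin adaptors follow them there. Of 22 listed genes 21 were tested, of which 6 rose, 3 fell and 12 missed the threshold. Of all tested genes 19.8% were higher and 13.9% lower, and the list's median of 0.10 compares with 0.03 for them. Under median centring all 21 were called higher, the 3 falls included, but so were 16472 of 28933 tested probes. The direction of the falls thus depends on the scaling. The list median was then 0.89, and that of all tested probes 0.50. That setting moved the bright Atg12 probe from 0.01 to 1.01 and the dim Cd8a probe from −0.03 to −0.62. The median over probes of all intensities is therefore no like measure for this list. Trim21, an antibody receptor and ubiquitin ligase, rose by 2.27 ± 0.21 (SD, n = 4; limma adjusted p = 4.08e-05). Atg3, an enzyme of the LC3 lipidation step, rose by 0.89 ± 0.19 (SD, n = 4; limma adjusted p = 0.00141), and Tax1bp1, an autophagy receptor, by 0.56 ± 0.25 (SD, n = 4; limma adjusted p = 0.0097). Map1lc3a, an LC3 gene, had −0.60 ± 0.32 (SD, n = 4; limma adjusted p = 0.014), a fall that turned to 0.41 under median centring. Gabarapl1, of the same family, had 0.17 ± 0.28 (SD, n = 4; limma adjusted p = 0.285) and 1.20 under median centring.

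The genes whose 4 log2 ratios lay closest to the median profile of the 10 members (4.85, 4.88, 4.41 and 4.65) were, among 15598 other genes, Psmb9, Psmb8, Nlrc5, Bst2 and Gbp7. Their root mean square distances over the 4 arrays were 0.17, 0.17, 0.27, 0.34 and 0.36 log2 units after loess. The Gbp7 control spots were well above background on 1 of 4 arrays, and its mean of 5.04 became 8.06 with Feature Extraction ratios, against a median of 5.07 over the member probes, so its place is not firm. Psmb9 and Psmb8 are immunoproteasome subunits, Nlrc5 is the activator of MHC class I genes, and Bst2 is a membrane tether of viruses.

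The cells carried muscle markers. Myod1 and Myog, the transcription factors that define the lineage, had mean log2 intensities of 10.96 and 15.2, where the lowest control signal well above background lay at 6.15 to 6.21 on the arrays. Their ratios were −0.02 ± 0.08 and −0.01 ± 0.40 (SD, n = 4). The marker counts that follow stand beside 19.8% higher and 13.9% lower of all tested genes. Of 10 myoblast and myotube markers 1 was higher, 5 were lower and 4 did not pass. The lower ones were Des (−1.23), Ckm (−1.12), Mymk (−0.90), Tnnt3 (−0.63) and Myh3 (−0.615). Under median centring 7 were higher, 0 lower and 3 did not pass, and of the 5 lower ones 2 were called higher and 3 did not pass. That setting called 16472 of 28933 tested probes higher. Of 10 macrophage markers 7 were tested, with log2 ratios of −0.40 to 0.59, 1 higher and 1 lower. C1qa and Ptprc had ratios of −0.02 and 0.01, and C1qa was well above background in control RNA on no array, whereas the brightest Itgam probe had a mean log2 intensity of 15.93 and a ratio of −0.14 ± 0.35 (SD, n = 4). Of 7 T or NK cell markers 5 were tested (−0.46 to 0.35, 1 higher and 2 lower), and of 5 fibroblast markers 3 were tested (0.04 to 0.67, 2 higher). The brightest Cd4 probe and the Col1a1 and Dcn probes had mean log2 intensities of 11.27, 15.5 and 14.07. Intensity alone therefore does not set the cell type. Under median centring the lower calls of the macrophage marker Csf1r and of the T cell markers Cd3e and Cd4 turned to higher, at 0.50, 0.33 and 0.54. The part of these markers in the members' response was not tested. Median intensities were 79.8 to 97 in control RNA and 149.5 to 264 in treated RNA over 43020 spots per array, and the number of arrays limits the precision.

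Processing moved the size of the dim probes most. With the ratios of Feature Extraction in place of normexp and loess, the Iigp1 probe A_55_P1990633 had 7.71 (209-fold), F830016B08Rik 5.53 (46.1-fold), Tgtp1 5.15 (35.5-fold) and the dim Tgtp2 probe 5.64 (49.9-fold). These are 2.85, 2.66, 3.33 and 5.33 times the loess folds. The other 10 probes moved by less than 1.5 times under that change. Median centring raised all 14 probes, to between 3.44 and 7.67, and moved the calls over all tested probes from 4778 higher and 3633 lower (56.8% higher) to 16472 higher and 6323 lower (72.3% higher).

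**Figure D5:**
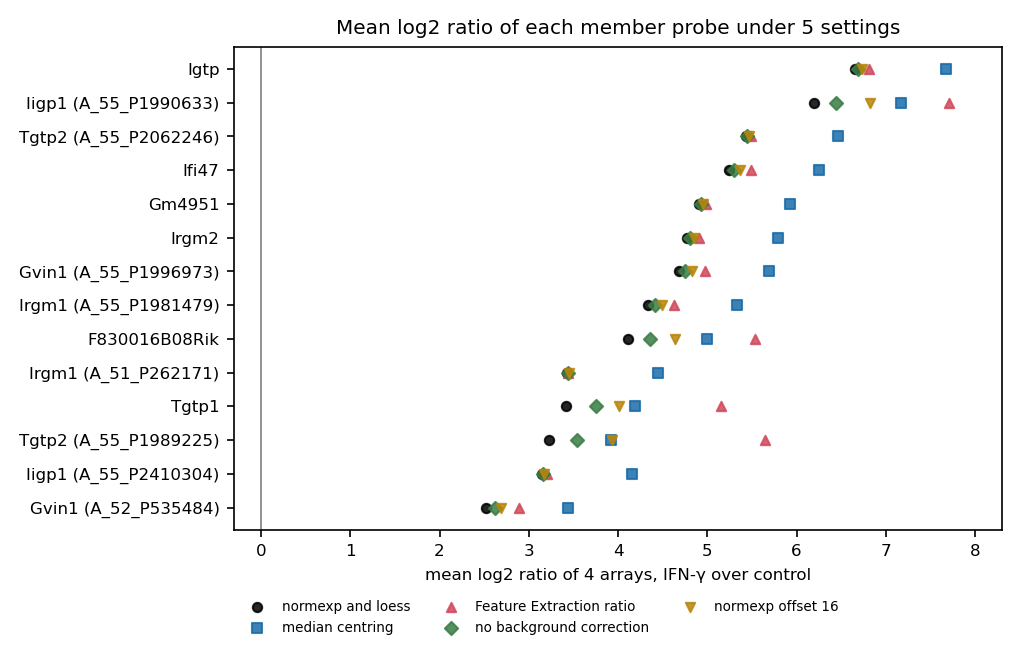
Mean log2 ratio over 4 arrays of each member probe under 5 settings. All points lie above 0; Feature Extraction ratios stand to the right of the loess values mainly for the probes with dim control spots.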

How the data were processed

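The members and gene lists were chosen with earlier results of these data known. Per the file headers, the authors' deposited scanner files give spot intensity per channel and the log10 ratio of Cy5 over Cy3, both written by Agilent's scanner software, Feature Extraction (version 10.7.3.1 per the submitters' processing notes). The authors' deposited value table is in log2 units. It had a slope of 3.32 against the scanner's log10 ratios (r of 1 over tested probes) and column medians of −0.124 to −0.105. Its direction is Cy5 over Cy3. For every member probe its mean equalled that of the Feature Extraction ratios, so no further centring is seen in these means.

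Median intensities were corrected with normexp (offset 50) and loess-normalised within each array (limma 3.58.1, R 4.3.3). Control spots had weight 0, outlier-marked spots were left out and spots of a probe were averaged. Of 39429 probes, 26055 received 1 symbol through the RefSeq gene table, 0 several and 13374 none. Probes were tested with lmFit and eBayes, with Benjamini-Hochberg adjustment at 0.05, and this procedure was tested on simulated data. Adjusted p-values come from limma, over 28933 probes for members and over 15678 genes, each by its brightest tested probe, for lists unless stated. Named genes were all members and tested relatives, up to 4 called genes with the largest ratio and the brightest uncalled gene of the 3 other pathway lists, and the 5 genes nearest to the members' profile. A few further genes were named to show the limits of a count or of a setting, and Socs1 was named beside Socs3. Alternatives changed the background correction, normalisation, filter, unit, values, test and arrays used. Promoters come from RefSeq, with Python 3.11.15 for the search.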

Additional observations from a re-analysis of the deposited data

Results flagged for a closer look

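Of 41 profiles of 4 arrays examined, 3 had 1 array whose gap to the nearest other array exceeded Dixon's critical share of the whole range; chance alone gives about 1 in 20. The Irgm1 probe A_51_P262171 had 3.92 on replicate 2, against 3.23 to 3.32 on the other arrays (gap 0.875 of the range). Socs3 had 0.19 on replicate 2, against −0.27 to −0.20 (0.852 of the range). Nlrc5 had 4.79 on replicate 1, against 4.39 to 4.41 (0.937 of the range).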

How the results depend on the processing

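Over 13 alternatives, all 176 values of member probes kept their direction and their side of the threshold, with log2 ratios of 2.47 to 7.71 and adjusted p-values up to 0.002. Alternatives that changed only the filter, unit or test kept the same ratios, so their direction could not change. The authors' value table repeated the members' Feature Extraction ratios and is no separate check. Requiring both channels above background on all arrays left 12 member probes tested, without Tgtp1 and the dim Tgtp2 probe. The members' median was 5.51 under median centring and 5.07 with either Feature Extraction ratios or the authors' value table. Over all tested probes, median centring gave 16472 higher and 6323 lower, and 1 probe per gene, which tests fewer features, gave 3104 and 2173. The methods' t-test called 2372 lower at an adjusted p under 0.05; with a fold of 2 it gave 416 higher and 312 lower unadjusted, and 409 and 241 after Benjamini-Hochberg adjustment, with 14 of 14 member probes in both. Leaving out 1 array gave 1910 to 6326 higher and 1153 to 5548 lower; the counts were 2918 and 1954 without replicate 1, 6326 and 5548 without replicate 2, 1910 and 1153 without replicate 3, and 2139 and 1268 without replicate 4. Apart from fewer features or arrays, the cause was not tested. The ratio within each array already pairs treated with control RNA, and the methods' t-test is its unpaired counterpart. Dim control spots near background limit the folds of 4 probes.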

Other observations

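Gm12185, named after its promoter was seen, was the fifth gene whose window held the joined GAS and ISRE pattern. It lies between Gm5431 and Psme2b on chromosome 11 and carries the synonym Irgb2b1 in the gene table. Its log2 ratios were 2.97, 2.64, 2.45 and 2.68, a mean of 2.68 ± 0.21 (SD, n = 4; limma adjusted p over probes of 5.1e-05).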
